A study of Mus musculus with 30 samples.

Results

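The peaks of CTCF and RAD21 around 10 regulators of somites and skeletal muscle were examined in the trunk of mouse embryos at E10.5. The genes were Tbx6, Meox1, Meox2, Tcf15, Uncx, Tbx18, Pax1, Myf5, Myod1 and Myog, and every deposited peak entry within 20 kb of their bodies was taken (mm10 build, positions counted from 1). That rule found 700 of the 1352462 entries of the series, 439 for CTCF and 261 for RAD21. CTCF is a zinc-finger protein that marks many anchors of chromatin loops, and RAD21 is a subunit of the cohesin ring that extrudes those loops. Both were mapped by ChIPmentation, a chromatin immunoprecipitation in which the Tn5 transposase inserts the sequencing adapters on the beads.

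The study asked what CTCF binding sites (CBS) in the Hoxd cluster do when they are mutated together on 1 chromosome, and the genes described here lie outside that cluster. All embryos were of the B6CBAF1 strain. CTCF libraries came from wild-type (WT) littermates (3), and from 3 embryos of Del(CBS1), 1 of Del(CBS1-2), 2 of Del(CBS1-3), 2 of Del(CBS1-4), 2 of Del(CBS1-5) and 1 of Del(CBS2). RAD21 libraries came from WT littermates (4), and from 3 embryos of Del(CBS1), 1 of Del(CBS2), 2 of Del(CBS1-2), 2 of Del(CBS1-3), 2 of Del(CBS1-4) and 2 of Del(CBS1-5). All mutants were homozygous, the trunks were dissociated one embryo at a time, and the number of founder lines per allele is not given in the sources used here.

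Somites bud from the presomitic mesoderm in a rostral to caudal order, and each then separates into sclerotome, which forms the vertebrae and ribs, and dermomyotome, which forms skeletal muscle and dermis. Tbx6 acts in the presomitic mesoderm, Meox1, Meox2 and Tcf15 act in the formed somite, Tbx18 and Uncx mark its rostral and caudal compartments, Pax1 acts in the sclerotome, and Myf5, Myod1 and Myog drive muscle determination and differentiation. The trunk also holds neural tube, gut and other tissues, so a weak peak may reflect binding in few cells or weak binding in many, which cannot be told apart. The peak lists hold no expression values, and the tissue label was not checked against marker genes.

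A gene start is the place where a peak can be read against sequence, and 7 of the 10 genes had an upstream sequence in the RefSeq promoter table (GRCm38.p6). In those 7, the 250 bases upstream of the start held 1 CTCF site, that of Tbx18, and 0 RAD21 sites. The Tbx18 sequence is shown for this reason. That of Meox2 is shown beside it because a RAD21 peak without a CTCF site lay 64 bp inside the start of Meox2. Both run 5′ to 3′ toward the start, on the minus strand of chr9:87731261-87731510 for Tbx18 and on the plus strand of chr12:37108290-37108539 for Meox2. Capitals mark the stretch that matches a core of the CTCF motif, searched on both strands, in all but 1 of its 7 fixed letters. The core was CC, 3 free letters, AG, 2 free letters and GGC.
Tbx18: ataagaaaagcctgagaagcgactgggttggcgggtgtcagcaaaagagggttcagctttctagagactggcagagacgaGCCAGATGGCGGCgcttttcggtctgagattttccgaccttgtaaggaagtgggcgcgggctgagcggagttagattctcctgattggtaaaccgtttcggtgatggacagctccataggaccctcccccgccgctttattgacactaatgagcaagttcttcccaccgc
Meox2: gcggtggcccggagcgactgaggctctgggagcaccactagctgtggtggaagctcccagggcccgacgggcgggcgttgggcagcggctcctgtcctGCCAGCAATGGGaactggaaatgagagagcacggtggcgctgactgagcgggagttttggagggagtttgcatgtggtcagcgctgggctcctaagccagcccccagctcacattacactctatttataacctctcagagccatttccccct

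In Tbx18 the capitals span bases 81 to 93 and hold a pair of overlapping matches, 1 on each strand. Their centres lay 20 and 21 bases from the CTCF site, which falls on base 66. In Meox2 the match at bases 99 to 110 lay 210 bases from the RAD21 site. A match with at most 1 fixed letter different was present in 57.8% of 32851 promoters of the same length and in 89.7% of the 1763 that held a CTCF summit, and an exact match in 7.17% and 34.4%. The matches are therefore a description of letters near a peak.

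Summits of all libraries of an antibody were linked within 150 bp, and a group with a peak in at least 7 of the 14 CTCF or 8 of the 16 RAD21 libraries is called a site. The 10 genes had 30 CTCF sites and 14 RAD21 sites. A further 30 CTCF and 19 RAD21 groups were in fewer libraries, 12 and 10 of them in 1 library. Of the CTCF sites 6 lay inside a body and 12 within 5 kb of one, and of the RAD21 sites 4 and 8 did. Tbx6, Myod1 and Pax1 each had 5 CTCF sites, Tbx18 had 4, Meox1 had 3, Tcf15, Uncx and Myog had 2, and Meox2 and Myf5 had 1. RAD21 sites numbered 3 at Pax1 and Tbx18, 2 at Meox1, Meox2 and Myod1, 1 at Tbx6 and Uncx, and 0 at Tcf15, Myf5 and Myog. The median of 21883 protein-coding genes was 3 CTCF sites and 1 RAD21 site, and 29.5% of them had 0 RAD21 sites.

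**Figure D1:**
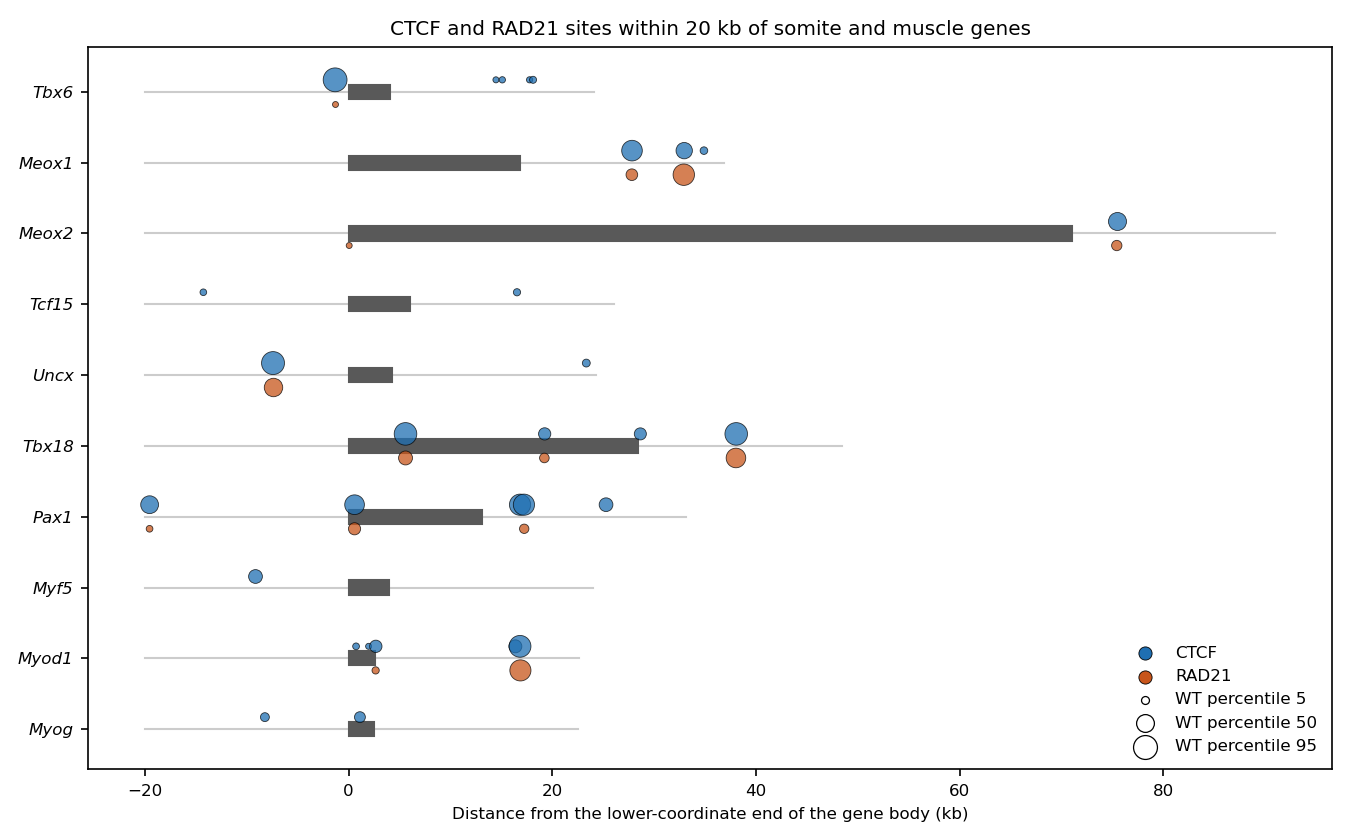
Map of the CTCF (blue, above the line) and RAD21 (orange, below) sites of each gene; the x axis is the distance in kb from the lower-coordinate end of the gene body (grey bar, to scale), and the area of a dot grows with the mean WT percentile. The largest CTCF dots lie at Tbx6, Uncx and Tbx18, and Tcf15, Myf5 and Myog have no RAD21 dot.

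The strength of a site is given as its percentile, the rank of the authors' fold enrichment in its own library among the sites that all libraries of the antibody had (32078 for CTCF, 12972 for RAD21), with 0 for no peak. Over the 30 CTCF sites the WT percentile ran from 0.273 to 94.5 with a median of 22.3, beside 22.5 for all CTCF sites of the genome. Of the 30, 11 were at 50 or above, 6 from 50 to 75 and 5 at 75 or more. The 6 include the Pax1 site at 147378766, which in WT has the values of the peak at 147379148, so that peak is counted at both positions. Over the genome 9579 and 7791 of 60696 CTCF sites were in these bands. Over the 14 RAD21 sites it ran from 0.160 to 75.1 with a median of 15.4, beside 13.0 for the genome.

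Tbx6, a T-box factor that directs presomitic cells to a mesoderm fate, had the CTCF site of the highest WT percentile among the 10 genes. The RAD21 site beside it ranked below nearly all RAD21 sites that every library had. Its rank among all entries of a list was not taken. The CTCF site was 1318 bp upstream of its start (chromosome 7, position 126780165), within the span of the neighbouring gene Ypel3. Its fold enrichment was 17.8, 16.2 and 16.6 in the WT libraries, percentiles 91.8, 98.4 and 93.3 (mean 94.5 ± 3.46, SD, n = 3). The 11 mutant libraries ran from 89.7 to 95.7 with a median of 94.4, so all 14 libraries placed it near the top. The RAD21 site 29 bp away had no peak in WT replicate 1 and percentiles of 0.146, 0.324 and 0.278 in WT replicates 2, 3 and 4, with fold enrichments of 3.36, 3.45 and 3.86. It was found in 12 of 16 libraries, and its mutant libraries reached a percentile of 1.77 and a fold enrichment of 4.68 at most. The other 4 CTCF sites of Tbx6 lay in the span of Aldoa, a glycolytic enzyme, 10406 to 14049 bp from the body, and all had WT means of 0.389 to 2.61.

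Meox1, a homeobox factor of the formed somite, had a CTCF order and a RAD21 order that differed. Its CTCF sites lay 10983, 16108 and 18045 bp beyond the upper-coordinate end of the body (chromosome 11, positions 101905337, 101910462 and 101912399), and all 3 were in 14 of 14 libraries. The nearest of them had WT percentiles of 67.1, 84.3 and 56.3, the middle one 47.1, 51.3 and 25.7, and the farthest 5.08, 3.92 and 3.44. By ranks of −log10 p the WT means of the nearest and the middle site were 87.8 and 85.1, in place of 69.2 and 41.3 by fold enrichment. The nearest had the higher CTCF fold enrichment of the leading 2 in 14 of 14 libraries, 1.11 to 1.41 times that of the middle one (median 1.27). For RAD21 the nearest was the lower in 16 of 16 libraries, at 0.443 to 0.865 times the middle one (median 0.571).

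The RAD21 percentiles of the nearest Meox1 site were 35.5, 8.27, 10.9 and 17.2 in WT, and those of the middle site were 80.4, 68.2, 75.7 and 76.3. The middle site was the strongest RAD21 site of the 10 genes (mean 75.1 ± 5.10, SD, n = 4), and its 12 mutant libraries ran from 51.2 to 94.3 with a median of 72.1. The groups overlapped. By −log10 p the nearest site led for CTCF in 9 of 14 libraries and for RAD21 in 0 of 16, so the CTCF order rests on the fold enrichment and the RAD21 order does not.

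Meox2, the paralog of Meox1, had 1 CTCF site 4401 bp beyond the upper-coordinate end of its body (chromosome 12, position 37183935), and this had the widest range among libraries of the 16 CTCF sites found in every library. Its WT percentiles were 40.5, 36.7 and 77.2 (51.5 ± 22.3, SD, n = 3), and by ranks of −log10 p the WT mean was 24.1. The Del(CBS1) libraries gave 17.002, 5.77 and 6.77, the 1 Del(CBS2) library gave 95.6, and the other 7 mutant libraries lay between 13.6 and 70.3. The lowest value, 5.77, came from a list of 40667 entries, and the highest, 95.6, from the longest CTCF list, of 88323. The range over all 14 libraries was 89.8 percentile points, wider than at 99.5% of the CTCF sites found in every library and than at 99.7% of the 3592 with a like mean. Its RAD21 partner 20 bp away had percentiles of 12.1, 16.5, 9.65 and 13.1 in WT and ran from 0 to 46.0 in the mutants. The other RAD21 site of Meox2, 64 bp inside the start, was in 10 of 16 libraries with a WT mean of 0.160, and was the 1 RAD21 site of the 10 genes without a CTCF site.

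Tcf15 (paraxis), a basic helix-loop-helix factor needed for somites to become epithelial, had little of either protein around it. Its CTCF sites lay 14254 and 10495 bp from the body (chromosome 2, positions 152128802 and 152159592), in 9 and 7 of 14 libraries. The farther site had WT percentiles of 1.98, 0.368 and 2.89, and the nearer one had no peak in WT replicates 1 and 2 and 9.34 in WT replicate 3. No library had a RAD21 entry within 20 kb, which held for 16.2% of protein-coding genes.

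Uncx, a homeobox factor of the caudal somite compartment, had 1 strong site shared by both proteins. The CTCF site lay 7413 bp below the lower-coordinate end of the body (chromosome 5, position 139536452), in the span of the transcript gene 4930500L23Rik. Its WT percentiles were 82.7, 96.3 and 83.0 (87.3 ± 7.78, SD, n = 3), and the 11 mutant libraries ran from 73.1 to 96.7 with a median of 87.6. RAD21 was found there in 16 of 16 libraries, with WT percentiles of 66.9, 45.7, 55.4 and 49.0 (54.2 ± 9.34, SD, n = 4). The mutants ran from 7.64 to 82.7 with a median of 40.04. The range over the 16 libraries was wider than at 96.2% of the RAD21 sites found in every library. It was wider than at 92.3% of the 1524 of them with a like mean. The other CTCF site of Uncx, 19.0 kb away, was in 10 of 14 libraries with a WT mean of 4.89.

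Tbx18, the T-box factor of the rostral somite compartment, had CTCF at 4 places and RAD21 at 3 of them. Inside the gene, at position 87708392 of chromosome 9, the WT CTCF percentiles were 92.8, 75.9 and 84.3, and 9598 bp upstream of the start (87740858), in the span of Gm36767, they were 84.6, 90.4 and 77.7. Their means, 84.3 ± 8.47 and 84.2 ± 6.33 (SD, n = 3), did not differ beyond the spread of the libraries. The CTCF fold enrichment was higher at the site in the gene in 9 of 14 libraries, whereas that of RAD21 was higher there in 2 of 16. RAD21 percentiles in WT were 45.1, 12.8, 11.1 and 44.5 at the site in the gene and 68.6, 48.7, 60.1 and 70.0 at the upstream site, without overlap.

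The CTCF site at the start of Tbx18, 185 bp upstream (position 87731445) and shown in the sequence above, was weaker and had no RAD21 site. Its WT percentiles were 10.2, 27.4 and 21.8 (19.8 ± 8.75, SD, n = 3). The mutants ran from 0 in Del(CBS1-3) replicate 2 to 66.4 in the Del(CBS2) library with a median of 8.33, and WT lay within that range. The remaining site, in the gene at position 87722054, had percentiles of 4.72, 22.6 and 34.3 for CTCF in WT (mean 20.5, and 5.26 by ranks of −log10 p) and 0.524, 9.28, 18.8 and 12.3 for RAD21.

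Pax1, a paired-box factor of the sclerotome, had CTCF at moderate percentiles on both sides of its body and inside it, with low RAD21. The highest was 4099 bp beyond the upper-coordinate end (chromosome 2, position 147379148), with WT percentiles of 62.5, 75.01 and 82.9 (73.5 ± 10.3, SD, n = 3) and mutants from 42.0 to 87.3. The site at 147378766, 3717 bp away, was called mostly from the flank of the same peak: 12 libraries had an interval over it, and 3 had a summit of their own within 100 bp. Inside the body at 147362522, in the span of AI646519 too, the WT percentiles were 65.5, 61.2 and 61.1, and 19.5 kb below the lower-coordinate end they were 34.8, 56.4 and 59.0. The site 12.2 kb beyond the upper-coordinate end (147387208) had a WT mean of 27.3 ± 16.9 (SD, n = 3).

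RAD21 at the highest Pax1 site was at 18.2, 4.66, 8.56 and 6.48 in WT, and at the site in the body at 23.0, 9.93, 28.3 and 19.1. The 12 mutants had medians of 18.5 and 6.57 at these sites. The second median includes 0 for Del(CBS1) replicate 1 and Del(CBS1-5) replicate 2, which had no peak at the body site. In WT the body site was higher in 4 of 4 libraries. Over the 14 libraries with both peaks it was higher in 7 by fold enrichment and in 10 by −log10 p. The order outside WT therefore depends on the measure. At neither site did the difference between WT and mutants pass a test (below). At the site 19.5 kb below the body RAD21 was at 2.60, 3.23, 0.409 and 1.05 in WT.

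Of the myogenic genes, Myod1 had the strongest sites, 14.2 kb beyond its upper-coordinate end (chromosome 7, position 46393310) and 2909 bp from Kcnc1, which encodes a potassium channel. The CTCF percentiles there were 86.4, 77.1 and 71.3 in WT (78.3 ± 7.62, SD, n = 3) and 59.2 to 87.6 in the mutants. Those of RAD21 were 77.7, 67.8, 68.5 and 77.5 in WT (72.9 ± 5.47, SD, n = 4) and 54.3 to 86.2 in the mutants. This site and the middle Meox1 site were the 2 RAD21 sites with the highest WT means of the 10 genes. The neighbouring CTCF site at 46392850 was in 8 libraries and had a summit of its own in 5. Nearer to Myod1, CTCF was found 61 bp beyond the end (46379153), at 41.5, 14.9 and 6.11 in WT (mean 20.8, and 44.2 by ranks of −log10 p), and inside the gene at 46377212 and 46378445, with WT means of 1.97 and 0.273. RAD21 near the end of Myod1 (46379133) was at 10.6, 0.154, 1.38 and 0.740 in WT.

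Myog had CTCF below the genome's median percentile in WT, and Myf5 had 1 CTCF site with a WT mean of 27.6, a little above it. Myog, which drives terminal muscle differentiation, had a CTCF site in the gene (chromosome 1, position 134291122), 1118 bp from the start, at 27.4, 6.24 and 11.2 in WT and 5.18 to 50.9 in the mutants. Its other site, 8211 bp below the body, was in 10 of 14 libraries. Myf5, the determination factor that acts earliest in the trunk myotome, had 1 CTCF site 9182 bp below its body (chromosome 10, position 107473726), at 8.98, 29.3 and 44.7 in WT and 0 to 49.8 in the mutants. By ranks of −log10 p the WT means were 8.56 at the Myf5 site and 9.55 at the Myog site in the gene. RAD21 had 1 group in 5 libraries at Myog and 1 group in 6 libraries at Myf5, both under the limit of 8. At the 3 CTCF sites of Myf5 and Myog the WT values lay within the range of the mutants.

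**Figure D2:**
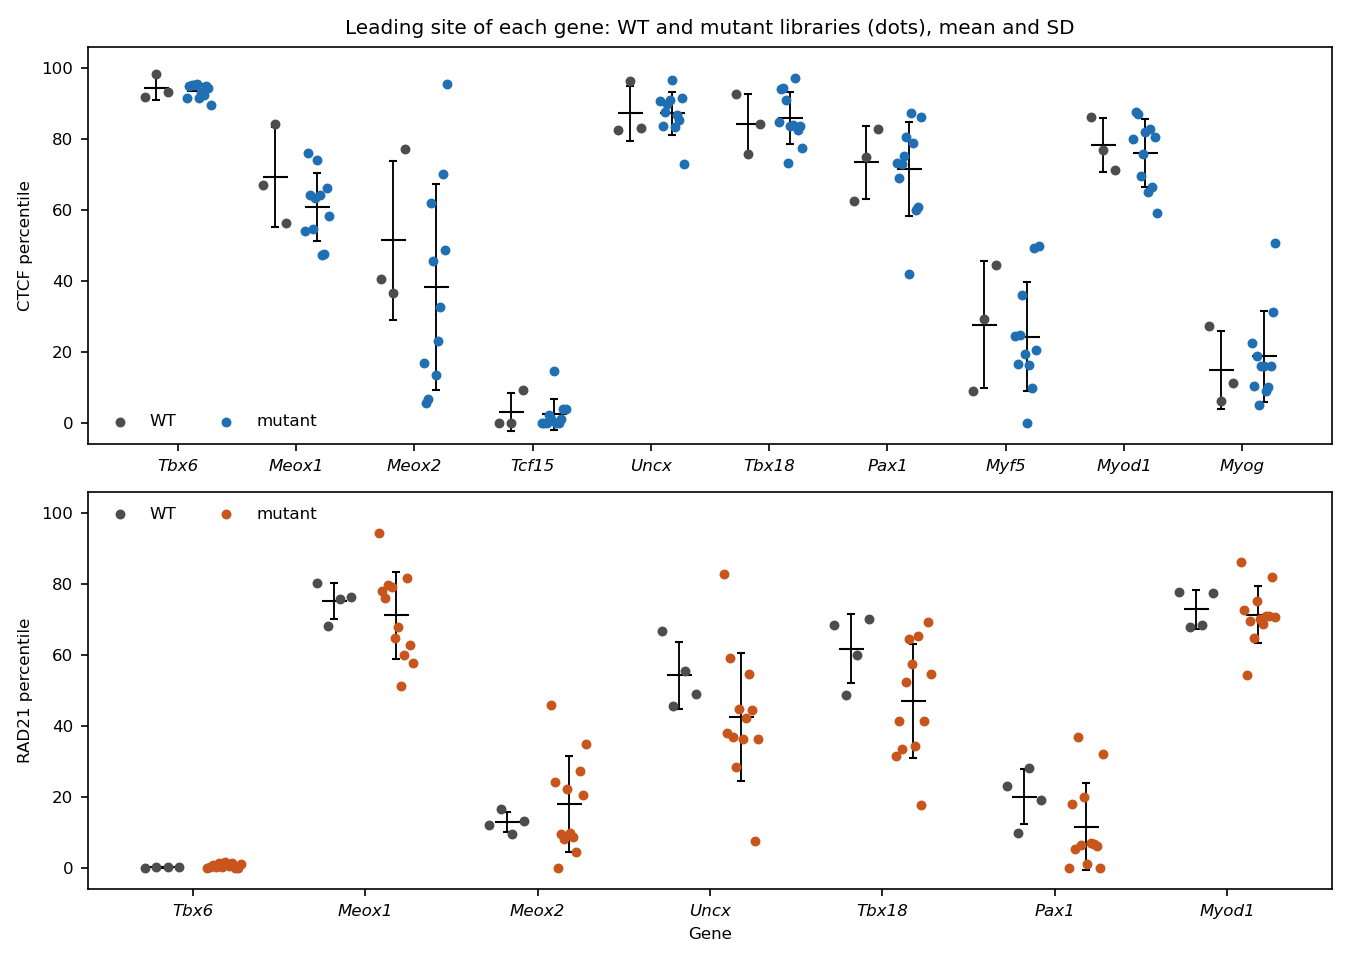
Percentile of the site with the highest WT mean of each gene for CTCF (top) and RAD21 (bottom), 1 dot per library, WT in grey and mutants in colour, with mean and SD. Tbx6 sits at 89.7 or above in every CTCF library and at 1.77 or below in every RAD21 library, and WT and mutant dots overlap at every gene.

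CTCF and RAD21 coincided at these genes about as often as elsewhere. A RAD21 site lay within 150 bp of 13 of the 30 CTCF sites (43.3%), beside 45.5% over the genome, and 13 of the 14 RAD21 sites had a CTCF site (92.9%, genome 92.3%). RAD21 was present at 5 of 5 CTCF sites with a WT percentile of 75 or more (genome 90.9%), at 5 of 6 from 50 to 75 (77.0%), at 1 of 3 from 25 to 50 (54.5%) and at 2 of 16 below 25 (21.6%). The 1 site from 50 to 75 without RAD21 was that of Pax1 at 147378766, in WT only the flank of the peak at 147379148. That peak had a RAD21 site and is counted at both positions, here and among the 30. In the 27 other genes of a list of somite and muscle regulators, of which 1 (Myf6) overlaps a window of the 10, 45 of 97 CTCF sites had RAD21 (46.4%).

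The RAD21 percentile was below the CTCF percentile in WT at 12 of the 13 shared sites. It was above at 1 of 13, beside 16.5% of the shared sites of the genome. The median difference was -38.7 percentile points, beside -19.8 over 27590 shared sites of the genome, where 5% to 95% of the sites lay from -69.3 to 14.4. The exception was the middle Meox1 site, at 33.8, which was above 98.8% of the genome's shared sites. By ranks of −log10 p its difference fell to 1.13, above 84.2% of them. The Tbx6 site had the other extreme, -94.3, with 0.217% of shared sites below it, and -98.4 by −log10 p. At Meox2 the difference was -38.7, and -17.3 by −log10 p. The percentiles of the 2 proteins come from separate lists, so a difference compares ranks and not amounts.

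**Figure D3:**
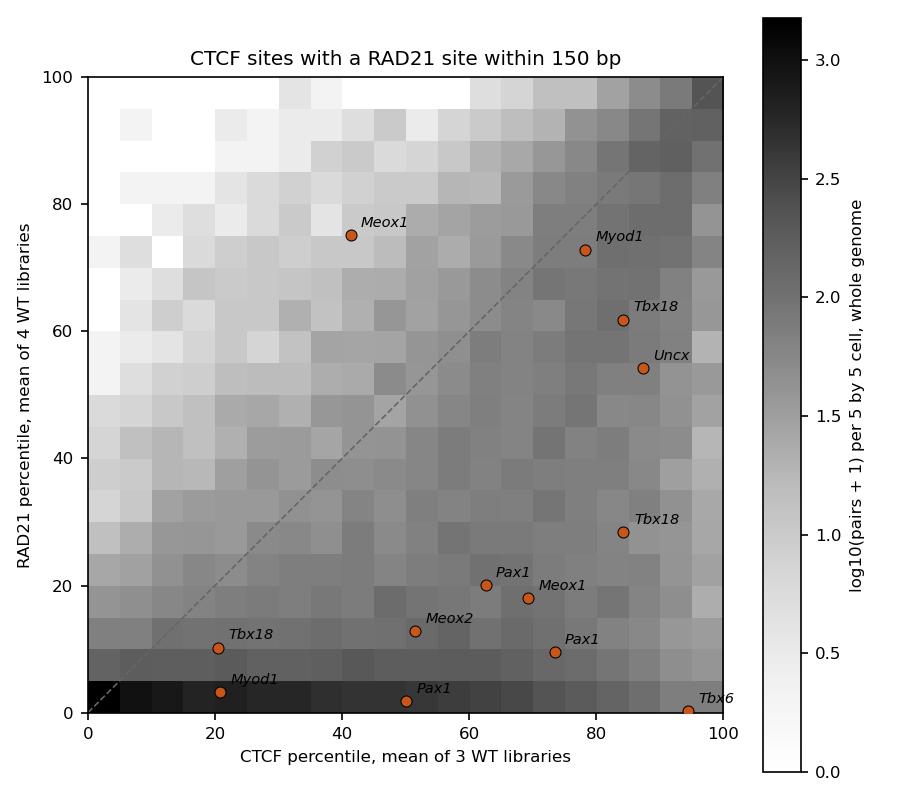
Mean WT percentile of CTCF (x axis) and RAD21 (y axis) at the 13 sites shared by both (orange), over the number of shared sites of the genome per cell (grey, log10 scale); the dashed line marks equal percentiles. The middle Meox1 site is the only orange dot above the line, and Tbx6 lies at the lower right.

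Across libraries, 16 of the 30 CTCF sites (53.3%, genome 52.9%) and 7 of the 14 RAD21 sites (50.0%, genome 43.4%) had a peak in every one. In the other list of 27 genes these shares were 52 of 97 CTCF sites (53.6%) and 19 of 53 RAD21 sites (35.8%). A further 7 CTCF sites were in every WT library and missing from 2 or more mutants, at Tbx6 (3), Myod1, Pax1, Tcf15 and Uncx, a pattern that 21% of CTCF sites of the genome had. At Tbx6 these were the sites in Aldoa at 126795954, 126799256 and 126799597, missing from 3, 7 and 4 mutant libraries. At Tcf15 (152128802) 5, at Uncx (139567206) 4 and at Myod1 (46378445) and Pax1 (147378766) 2 mutants lacked the site. At that Pax1 site the WT libraries had only the flank of the peak at 147379148. The libraries with a summit of their own there were all mutants, so the pattern at this site is not one of a peak present in WT. For RAD21 the pattern was seen at 2 Pax1 sites (147342397 and 147362519, 2 mutants each), beside 11.8% of the genome.

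The libraries that lacked most sites had the shortest lists, with exceptions. CTCF lists held 40011 to 88323 entries and RAD21 lists 16676 to 48102, and read depth was unknown. The shortest CTCF lists, of Del(CBS1-3) replicate 2 (40011), Del(CBS1) replicate 2 (40667) and Del(CBS1) replicate 3 (44550), had 21, 20 and 22 of the 30 sites. The WT lists held 52925 to 75027 entries and had 27 to 30 of them, while Del(CBS1-4) replicate 2, with 55899, had 24. The shortest RAD21 lists, of Del(CBS1-5) replicate 2 (16676) and Del(CBS1) replicate 1 (18029), had 10 of the 14 sites each, and the WT lists (22449 to 39841) had 12 to 14. Del(CBS1) replicate 3 had 12 with 33239 entries, and WT replicate 3 had 14 with 32522. The part of list length in the missing sites was not tested. In a check of the genotype labels, CTCF sites of the Hoxd cluster were absent exactly in the libraries with CBS3, CBS4 and CBS5 mutated (1 site each), and RAD21 sites for CBS1 and CBS4 (1 each). For the remaining CBS, 0 sites of the cluster had the exact pattern. Over the whole genome the exact pattern was held by 7 CTCF sites for CBS1, by 7 for CBS5 (the Hoxd site included) and by 109 RAD21 sites for CBS5.

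**Figure D4:**
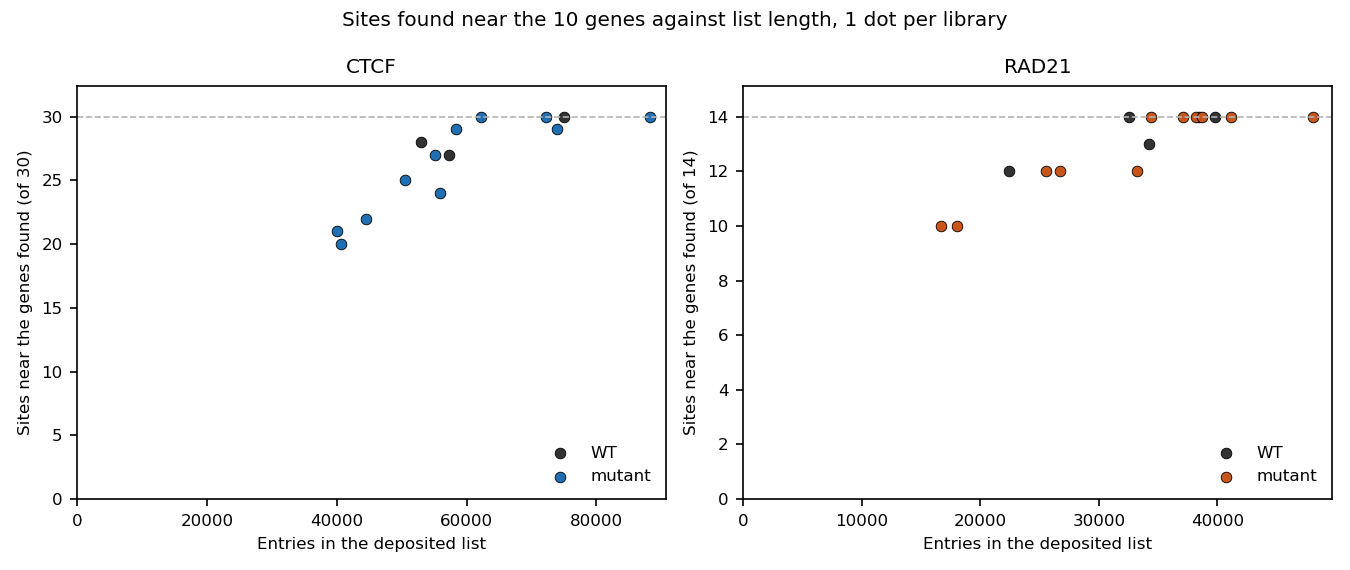
Number of sites near the 10 genes found in each library (y axis) against the entries in its deposited list (x axis), CTCF left and RAD21 right, WT dark and mutants coloured; the dashed line is the number of sites. The 3 shortest CTCF lists have 20 to 22 of 30 sites, and the 5 longest have 29 or 30.

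No site near the 10 genes changed between WT and mutants in a test that passed correction. The ranks of the sites in every library were fitted with limma on normal scores (units of 1 SD of a normal distribution), with Benjamini-Hochberg adjustment over all sites. For all mutants against WT, 0 of 16 CTCF and 0 of 7 RAD21 sites had an adjusted p under 0.05, beside 0% of all 32078 CTCF and 0% of all 12972 RAD21 sites. Unadjusted, 0 of the 16 and 0 of the 7 were under 0.05, beside 1.7% and 2.75% of all sites. The differences, mutants minus WT, ran from -0.41 to 0.25 for CTCF (6 higher, 10 lower, median -0.05) and from -0.39 to 0.55 for RAD21 (2 higher, 5 lower). The 27 other genes gave 0 of 52 CTCF and 0 of 19 RAD21 sites.

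For a slope on how many CBS the allele had mutated, 0 of 16 CTCF and 0 of 7 RAD21 sites passed (all sites 0.00312% and 0%), and 0 and 1 (Uncx) did at an unadjusted p under 0.05 (2.51% and 5.2%). Del(CBS1-5) against WT gave 0 of 16 and 0 of 7 (0.0156% and 0.0463%), and 0 and 1 unadjusted (1.59% and 9.55%). Del(CBS1) against WT gave 0 of 16 and 0 of 7 (0% and 0.00771%), and 1 and 2 unadjusted (5.21% and 5.08%). Sites that some libraries lack were covered by an exact permutation test (2-sided) of the percentile, WT against mutants. It called 0 of the 30 CTCF and 0 of the 14 RAD21 sites after adjustment over all sites (0% of both), and at an unadjusted p under 0.05 it also gave 0 and 0 (2.37% and 2.49%). The smallest p it allowed was 0.00275 for CTCF and 0.000549 for RAD21, which no single site could carry past an adjustment over 60696 and 29875 sites, so its 0 calls after adjustment say nothing about whether sites differed.

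Meox2 had the lowest unadjusted p. Its CTCF site was lower in Del(CBS1) than in WT by limma (-1.40 ± 0.33 normal-score units, SE, unadjusted p = 0.000369, adjusted p = 0.846), and the 3 Del(CBS1) libraries lay below the 3 WT libraries. The adjusted p ran from 0.117 to 1.00 over the alternative settings. RAD21 at this Meox2 site showed no such order. It was at 46.0, 24.1 and 0 (no peak) in Del(CBS1) replicates 1, 2 and 3, and at 9.65 to 16.5 in WT. In CTCF the Del(CBS1) libraries also lay below WT at the Tbx18 site at 87740858, at 77.5, 74.7 and 56.0. The margin was narrow, as the lowest WT library was at 77.7 (-0.51 ± 0.28, SE, limma adjusted p = 0.905). That made 2 of 16 CTCF sites below every WT library in Del(CBS1), beside 4.5% of all sites, and 0 above, beside 5.13%. In RAD21 the same Tbx18 site was at 31.6, 41.5 and 33.4 in Del(CBS1), below the 4 WT libraries (-0.68 ± 0.32, SE, limma adjusted p = 0.934), as 2.88% of all sites were. The RAD21 site of Pax1 at 147379175 was at 52.0, 18.8 and 19.7, above the 4 WT libraries (0.81 ± 0.35, SE, limma adjusted p = 0.934), as 2.74% of all sites were.

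In Del(CBS1-5) the RAD21 site of Uncx, at 44.4 and 7.64, was below all 4 WT libraries (-0.90 ± 0.37, SE, limma adjusted p = 0.434), as 8.34% of all RAD21 sites were, and 0 of the 7 were above (8.5%). Replicate 2 is the library with the shortest RAD21 list. Without it the difference was -0.25, and without replicate 1 it was -1.54. For CTCF, the far Meox1 site at 101912399 (2.195 and 3.420) and the Pax1 site at 147379148 (60.2 and 60.9) were below every WT library, 2 of 16 beside 7.29% of all sites. The Pax1 site at 147342403 (67.8 and 64.8) was above, 1 of 16 beside 7.75%. None of these 3 had an unadjusted limma p under 0.05.

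**Figure D5:**
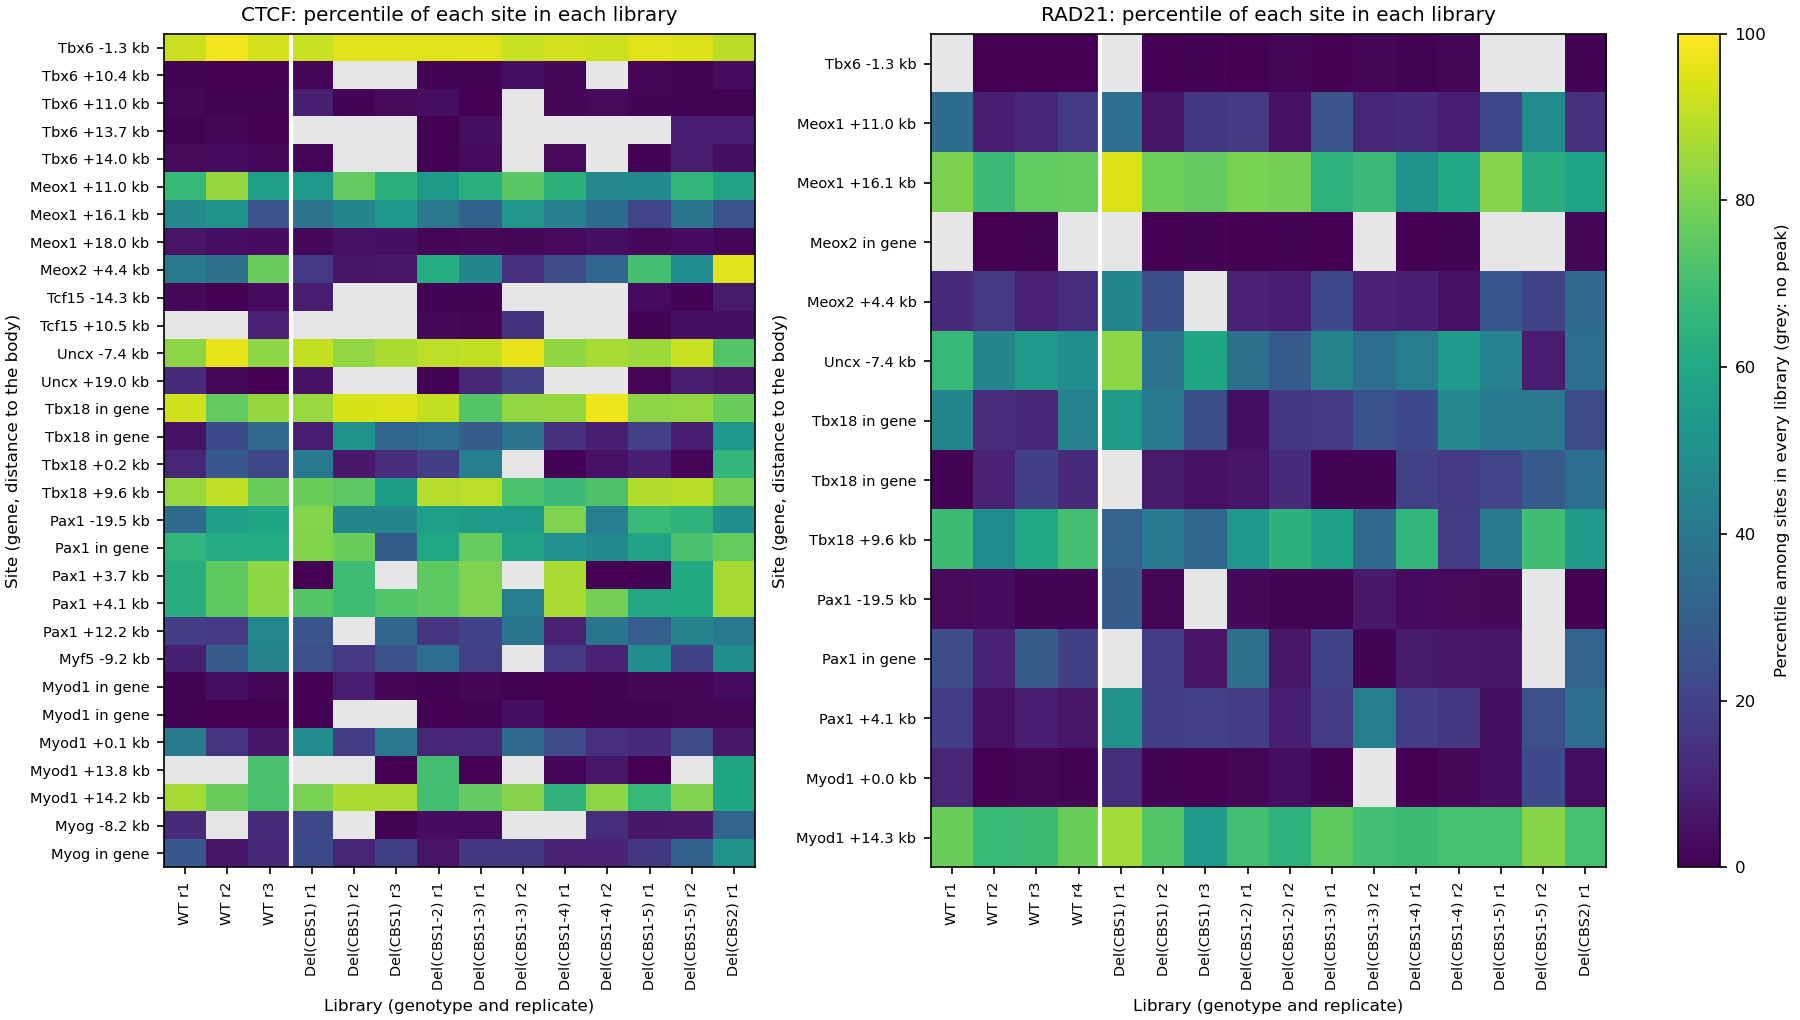
Percentile of each of the 30 CTCF (left) and 14 RAD21 (right) sites (rows, by gene and distance to the body) in each library (columns); colour gives the percentile, grey marks no peak, and the white line separates WT from mutants. In the CTCF panel the leading rows of Tbx6, Uncx, Tbx18 and Myod1 are at 59.2 or above in every library, in the RAD21 panel those of Uncx and Tbx18 fall to 7.64 and 17.8 in single mutants, and grey cells in the CTCF panel are most frequent in Del(CBS1) replicates 2 and 3 and Del(CBS1-3) replicate 2.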

How the data were processed

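Peak lists were deposited for 14 CTCF and 16 RAD21 libraries, called for each library alone on mm10. MACS2 2.1.1.20160309 and Bowtie2 2.3.5 are named for this series, per the submitters' processing notes, beside bedtools 2.27.1, Picard 2.19.0, cutadapt 1.16 and SAMtools 1.9; their settings are not given in the sources used here. The authors deposited for each entry a display score, a fold enrichment (a ratio over local background), −log10 p and −log10 q values and a summit offset. Folds were used as ranks within a library or as ratios between sites of 1 library, except in 1 limma alternative that took their log2 centred on the library's median, because lists made separately cannot be compared directly and hold no counts.

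A library had a site where an entry covered the median summit; intervals with several summits gave the value of the nearest. Sites, gene distances (RefSeq, GRCm38.p6) and percentiles were computed in Python 3.11.15 with numpy 2.4.6, pandas 2.3.3 and scipy 1.17.1, and plots with matplotlib 3.10.9. Ranks were tested with limma 3.58.1 (robust, with trend) in R 4.3.3, which was tested on simulated data; the spread of a genotype with 1 library was taken from the rest. Allele names such as Del(CBS1-3) were taken to cover each CBS in the range. Strand, and so the start, was not used for Meox1, Tcf15 and Myod1. The members, lists and tests were chosen with earlier results of these data known. All 10 genes were named, with each gene's site of highest WT mean, sites missing from 2 or more mutants only, and any called site. Alternatives were windows of 5 and 50 kb, linking at 75 bp, a summit within 100 bp, any base within 250 bp, −log10 q of at least 10, equal list lengths, ranks of −log10 p, the centred log2 folds, limma without trend and robust fitting, the weakest 25% of sites left out, a replicate block and leaving out each library.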

Additional observations from a re-analysis of the deposited data

Results flagged for a closer look

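The RAD21 site 41 bp beyond the end of Myod1 (position 46379133) had 1 WT library far from the others. WT replicate 1 was at the 10.6th percentile, and the nearest other WT library was at 1.38 and the lowest at 0.154. The gap was 0.882 of the range, over Dixon's 95% limit for 4 samples. This was 1 of 14 WT groups of 4 examined, and chance gives about 1 in 20. WT replicate 1 had the shortest WT list of RAD21 (22449 entries). At this site the 2 shortest RAD21 lists, of Del(CBS1-5) replicate 2 (16676) and Del(CBS1) replicate 1 (18029), gave 22.3 and 13.2. Del(CBS1-3) replicate 2 (25579) had no peak there. The part of list length was not tested.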

How the results depend on the processing

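In each limma contrast 0 sites near the 10 genes were called under every alternative run and with any library left out; the permutation test also called 0, but was too small to pass its adjustment. Counts of sites follow the window by construction. Within 5 kb there were 12 CTCF sites, 9 of them in every library and 7 with RAD21, and 8 RAD21 sites, 2 in every library. Within 50 kb these counts were 57, 35, 29, 30 and 16. With −log10 q of at least 10, RAD21 sites in every library fell to 2 (from 7), fewer entries being left. Leaving out each library gave 28 to 31 CTCF sites (16 to 19 in every library, 13 with RAD21) and 14 RAD21 sites (7 to 8). By ranks of −log10 p the RAD21 minus CTCF percentile was 1.13 at the middle Meox1 site (from 33.8) and -98.4 at Tbx6 (from -94.3); without each WT library it ran from 25.97 to 38.78 and from -95.7 to -92.4. Of 109 alternative WT percentiles of the leading sites 88 stayed within 1 SD. The 88 include every mean with 1 WT library left out, which by construction cannot move by 1 SD. This count therefore overstates stability. Each leading site had 3 alternatives that could move further. The other 21 percentiles all came from these, and their cause was not tested. They include RAD21 with −log10 q of at least 10: 23.7 at Uncx (from 54.2), 32.5 at Tbx18 (from 61.8), 47.2 at Myod1 (from 72.9), 2.00 at Pax1 (from 20.1) and 1.085 at Meox2 (from 12.8).

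Calls over the whole genome were few and did move; the cause was not tested. The CTCF trend called 1 site, and 0 by ranks of −log10 p, without the weakest 25%, with a summit within 100 bp or with −log10 q of at least 10 (0 to 2 with a library left out: 2 without Del(CBS1-4) replicate 1, 0 without either Del(CBS1-5) library). CTCF in Del(CBS1-5) called 5, and 0 with a summit within 100 bp and 3 with −log10 q of at least 10 (5 to 13 with a library left out, 13 and 11 without Del(CBS1-5) replicates 1 and 2). CTCF in Del(CBS1) called 0, and 2 by −log10 p and 1 with −log10 q of at least 10 (0 to 16, 16 without Del(CBS1) replicate 1, 2 and 1 without WT replicates 1 and 2). RAD21 in Del(CBS1-5) called 6, and 14 by −log10 p, 2 without the weakest 25% and 0 with −log10 q of at least 10 (0 to 159, 159 without Del(CBS1-5) replicate 1, 1 without replicate 2, 0 without any 1 WT library). RAD21 in Del(CBS1) called 1, and 0 with a summit within 100 bp or −log10 q of at least 10 (1 to 2, 2 without WT or Del(CBS1) replicate 1). RAD21 in all mutants called 0 to 1, 1 without WT replicate 3. Where 1 library of an arm remained, it was assumed to vary like the other groups.

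Replicate numbers gave no clear pairing of the libraries. With the mean of each genotype taken out, same-numbered libraries correlated at -0.24 to 0.26 over 21 CTCF pairs and -0.19 to 0.27 over 31 RAD21 pairs. Genotypes with 2 libraries each give the same value for both numbers, so not all pairs are separate. WT and Del(CBS1) replicates 1, 2 and 3 correlated at 0.26, 0.12 and 0.03 for CTCF and 0.27, 0.09 and 0.06 for RAD21. Of 12 CTCF and 15 RAD21 libraries, 5 and 4 correlated best with their own number. With the replicate block, calls over all sites were 2 for the CTCF trend, 8 for CTCF and 0 for RAD21 in Del(CBS1-5), and 0 near the 10 genes. Fold enrichment over local background and the unknown read depth limit how far weak sites, such as those of Tcf15, can be told from no binding.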
